A study of Mus musculus with 12 samples.

Results

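The 10 genes described here encode enzymes of transsulfuration (*Cth*, *Cbs*), of asparagine, glutamine and aspartate synthesis (*Asns*, *Glul*, *Got1*), of proline synthesis (*Pycr1*, *Aldh18a1*), of alanine and branched-chain amino acid transamination (*Gpt2*, *Bcat1*) and of phosphoenolpyruvate synthesis in mitochondria (*Pck2*). They were chosen by name, as enzymes of these pathways and with earlier results of the same libraries known, and all 10 were found by symbol among the 54532 genes of the count table. Because the choice drew on the same contrasts, their levels and differences are given as a description, and whether an enzyme passed the threshold over all genes is stated only to describe it, not as independent evidence. Bone marrow cells of wild-type (WT) C57BL/6 mice were cultured with GM-CSF and IL-6, the cytokines of a medium that induces myeloid-derived suppressor cells (MDSCs), and all cultures received these cytokines. To the cultures were added vehicle (0.1% DMSO), 10 µM indole-3-propionic acid (IPA, a microbial metabolite of tryptophan) or 50 µM IPA, with IPA renewed at the medium change on day 3 and cells harvested on day 5. The paper terms 50 µM supraphysiological. It reports slightly reduced viability at 50 µM but no effect on viability at 10 µM, and for that reason focused on 10 µM. The part of viability in the differences at 50 µM was not tested. RNA-seq was done on 4 libraries per group, 12 in all, and the comparisons ask how the transcriptome of these cells differs with the dose of IPA. Whether the 4 libraries of a group came from separate mice or cultures is not given in the sources used here, so all intervals and tests measure the spread between libraries, which may be technical. Ages of the mice were not in the labels, while the paper's methods state an age range and female sex for its C57BL/6 mice in general.

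Transsulfuration makes cysteine from homocysteine and serine. Cystathionine beta-synthase (*Cbs*) joins homocysteine and serine to cystathionine, and cystathionine gamma-lyase (*Cth*) splits cystathionine into cysteine, the limiting building block of glutathione. Asparagine and proline are non-essential amino acids made from aspartate and glutamate, and transaminases move the amino group of glutamate between carbon skeletons. Several of these enzymes belong to the amino acid response, in which the transcription factor ATF4, bound as a dimer with a C/EBP partner, acts on composite elements in promoters.

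The element searched for was TGATGNAA on either strand, a form of the C/EBP-ATF composite site, in RefSeq promoter windows of GRCm38.p6 that run from 250 bases before to 50 after a start site. RefSeq windows matched 9 of the 10 genes, all but *Cth*, with 10 windows in all, and 4 genes had the letters in a window (*Asns*, *Pycr1*, *Pck2* and *Got1*). Of all 32851 windows of this length, 1304 (3.97%) held them. The 30 bases around each match are shown because they are the places in these promoters where the letters occur, 5′ to 3′ on the strand of the gene and with the match in capitals.
Asns (chr6:7693214-7693243, minus strand): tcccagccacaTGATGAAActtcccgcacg
Pycr1 (chr11:120643833-120643862, minus strand): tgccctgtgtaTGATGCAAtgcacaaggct
Pck2 (chr14:55540152-55540181, plus strand): agccttcaaagTTACATCAgtatcttacag
Got1 (chr19:43524689-43524718, minus strand): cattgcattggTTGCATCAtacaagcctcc
In *Asns* the match lies 23 to 16 bases before the RefSeq start site on the sense strand, and in *Pycr1* 103 to 96 bases before it on the same strand. The stretch shown for *Asns* lies within the gene's span in GENCODE, whose first base (7693254, minus strand) is upstream of the RefSeq start site. In *Pck2* it lies 103 to 96 bases before the start site and in *Got1* 102 to 95 bases before it, both on the antisense strand. The single form TTGCATCA, the reverse complement of TGATGCAA and so an instance of the same element, was in the windows of *Pycr1* and *Got1* and in 294 windows (0.895%) of all. The windows of *Cbs*, *Aldh18a1*, *Gpt2*, *Bcat1* and *Glul* did not hold these letters. The RefSeq start site of the *Glul* window lies a few bases upstream of the gene's start in GENCODE. A match describes the letters of a window and does not show a bound site.

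The libraries held 20451312 to 28038612 gene counts each, and 14894 genes with more than 0.5 CPM (counts scaled to the library total) in at least 2 of the 12 libraries were tested with edgeR. A gene is termed called at a Benjamini-Hochberg adjusted p under 0.05 over all genes tested. Levels are CPM, scaled by TMM factors over the 12 libraries and given as mean ± SD, while log2 fold changes are given ± SE. All 9 neutrophil and all 6 monocyte markers checked passed the filter. The summed level of the neutrophil markers was 16520 to 23500 CPM with vehicle, 16250 to 18530 at 10 µM and 12340 to 17010 at 50 µM, and that of 9 macrophage markers was 1500.0 to 1864, 2174 to 2584 and 2687 to 2866. Of the 9 neutrophil markers, 4 were called lower at 50 µM against vehicle and 5 at 50 µM against 10 µM. Of the 9 macrophage markers, 4 were called higher at 10 µM, 3 were called higher and 1 lower at 50 µM against vehicle, and 2 higher and 5 lower at 50 µM against 10 µM, where *Gpnmb* alone went from 1205 to 1707 CPM. The monocyte sum was 3433 to 4161 CPM with vehicle, 4683 to 5757 at 10 µM and 2886 to 3759 at 50 µM, and 4 of its 6 markers were called lower at 50 µM than with vehicle, all 6 lower than at 10 µM, and 1 higher at 10 µM than with vehicle. Sums of 6 B cell markers were 19.1 to 27.2, 24.2 to 34.1 and 37.9 to 60.9 CPM, with 5 of 6 called higher at 50 µM than with vehicle. Megakaryocyte markers (4 genes) summed to 264 to 306, 262 to 327 and 336 to 387 CPM, T and NK cell markers to at most 3.64 and erythroid markers to at most 1.52. Dendritic cell markers (6 genes) summed to 81.3 to 94.7, 85.7 to 94.4 and 100.9 to 129.4 CPM, mast cell and basophil markers (5) to 280.4 to 355, 225 to 318 and 266 to 379 CPM, and eosinophil markers (3) to 1023 to 1261, 858 to 1088 and 789.8 to 1065 CPM. Stromal markers (5) summed to 8.30 to 13.4, 7.35 to 11.7 and 5.02 to 6.21 CPM, with *Cxcl12* at 0 in every vehicle and every 50 µM library. These are bulk libraries, in which fewer cells of a type and less RNA per cell cannot be told apart, and the part of these marker differences in the results for the enzymes was not tested.

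At 50 µM IPA, 8 of the 10 enzymes were higher than with vehicle, from a log2 fold change of 0.38 for *Aldh18a1* to 4.38, or 20.9-fold, for *Cth*. *Glul*, the glutamine synthetase, was not among them, and *Cbs* was too low to be tested. At 10 µM, none of the 9 tested enzymes was called in either direction. The same 8 were higher at 50 µM than at 10 µM, and *Glul* was lower. In numbers, 0 of 9 were called at 10 µM by edgeR, by DESeq2 and by limma-voom, and 2 (*Got1* and *Glul*) had an unadjusted p under 0.05, as did 1308 of the 14894 genes tested. Of all genes tested at this dose, 0.329% were called higher and 0.0806% lower. At 50 µM against vehicle 8 of 9 were called, all higher, where 7.00% of all genes tested were called higher and 6.50% lower. For 50 µM against 10 µM 8 of 9 were called higher and 1 lower, beside 7.52% and 7.85% of all genes tested. Every 50 µM library lay above every vehicle library for 8 of the 9, beside 9.45% of all genes tested, and above every 10 µM library for the same 8, beside 9.43%. Every 10 µM library lay above every vehicle library for 1 of the 9 (*Got1*), beside 3.57% of all genes. The median log2 fold change of the 9 was -0.01 at 10 µM, 1.13 at 50 µM against vehicle and 1.15 at 50 µM against 10 µM, and that of all genes tested was -0.01, 0.01 and 0.01. Because the genes were chosen with these contrasts known, nothing is read from the excess over the background. The comparisons share libraries, so that the sets of values for a gene are not independent of each other.

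**Figure D1:**
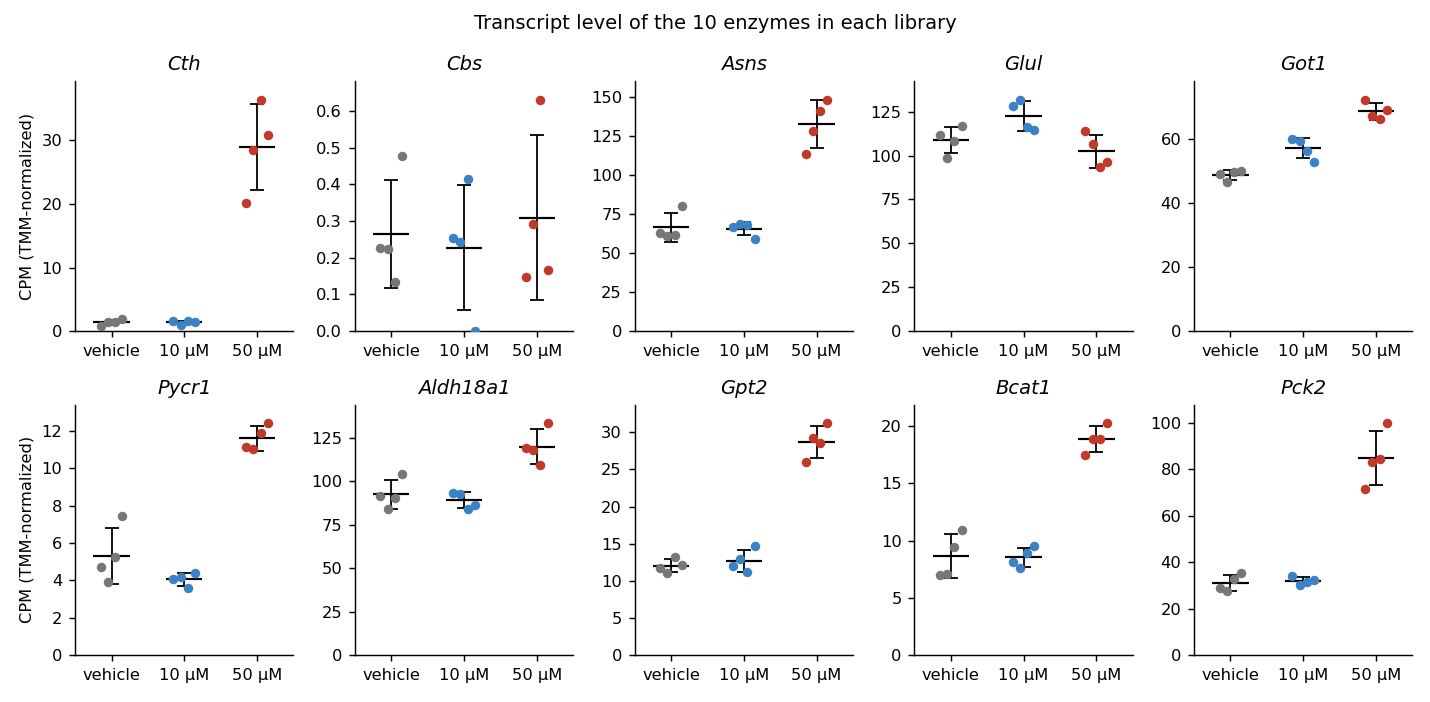
Level of each of the 10 enzymes in CPM (vertical axis, from 0, a separate scale for each gene) in the vehicle, 10 µM and 50 µM groups. Points are libraries in the order of replicates 1 to 4, and bars are the mean and SD over 4 libraries. In 8 panels all 4 points at 50 µM lie above every other point, while *Cbs* and *Glul* overlap between vehicle and 50 µM.

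*Cth* (ENSMUSG00000028179, chromosome 3, 157894248 to 157925077, minus strand of GRCm38, 13 exon blocks) encodes the enzyme that releases cysteine from cystathionine. With vehicle its level was 0.870, 1.37, 1.39 and 1.95 CPM in replicates 1 to 4, and at 10 µM it was 1.56, 0.919, 1.54 and 1.47 CPM. At 50 µM it was 20.2, 28.5, 36.4 and 30.9 CPM. *Cth* was thus barely expressed in the first 2 groups, with 23 to 49 reads per library with vehicle and 19 to 43 at 10 µM, and was a moderately expressed gene in every 50 µM library, with 414 to 777 reads. Group means were 1.39 ± 0.440 (SD, n = 4), 1.37 ± 0.304 (SD, n = 4) and 29.0 ± 6.72 CPM (SD, n = 4). The log2 fold change at 50 µM against vehicle was 4.38 ± 0.23 (SE), with a 95% interval of 3.90 to 4.87, and ranked 4 from the highest among the 14894 genes tested. At 10 µM it was -0.02 ± 0.31 (SE). With so few reads its 95% interval, -0.70 to 0.67, is the widest of the 9 enzymes at that dose, and changes within it were not detectable at this depth.

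*Cbs* (ENSMUSG00000024039, chromosome 17, 31608894 to 31637238, minus strand), which makes the cystathionine that *Cth* splits, was near the limit of detection in every group. Its reads were 6, 6, 3 and 12 with vehicle, 7, 5, 11 and 0 at 10 µM and 3, 8, 13 and 4 at 50 µM. The ranges overlap in all 3 groups, and no group stands above the others. Mean levels were 0.265 ± 0.147 (SD, n = 4), 0.227 ± 0.171 (SD, n = 4) and 0.310 ± 0.224 CPM (SD, n = 4), below the minimum for a test, so no fold change is given. The 2 genes of the pathway therefore differed in their levels at 50 µM, a high *Cth* beside a *Cbs* of 3 to 13 reads.

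*Asns* (ENSMUSG00000029752, chromosome 6, 7675169 to 7693254, minus strand) encodes the glutamine-dependent asparagine synthetase. Its level was 63.3, 60.8, 62.0 and 80.5 CPM with vehicle, 66.9, 68.6, 68.0 and 59.3 CPM at 10 µM and 113, 128, 141 and 149 CPM at 50 µM. All 50 µM libraries lay above all others, and vehicle replicate 4 stood above the other 3 vehicle libraries. Means were 66.6 ± 9.32, 65.7 ± 4.33 and 133 ± 15.5 CPM (SD, n = 4 each). The log2 fold change was 1.00 ± 0.11 (95% interval 0.77 to 1.24) at 50 µM and -0.02 ± 0.10 (95% interval -0.23 to 0.19) at 10 µM, both against vehicle and with SE, so that *Asns* was 2.00-fold as high at 50 µM.

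*Glul* (ENSMUSG00000026473, chromosome 1, 153899944 to 153909723, plus strand) encodes glutamine synthetase, which makes the amide donor used by *Asns*. Its level was 112, 98.8, 108 and 117 CPM with vehicle, 128, 132, 116 and 114 CPM at 10 µM and 114, 107, 93.3 and 96.4 CPM at 50 µM. Vehicle overlapped both doses, whereas every 50 µM library lay below every 10 µM library. Its log2 fold change was 0.17 ± 0.07 (95% interval 0.01 to 0.33) at 10 µM and -0.08 ± 0.08 (-0.26 to 0.10) at 50 µM, both against vehicle and neither called. At 50 µM against 10 µM it was -0.26 ± 0.08 (-0.42 to -0.09), called lower. That call was lost without 10 µM replicate 1 or 2 and without 50 µM replicate 2, 3 or 4, with log2 fold changes between -0.31 and -0.21 over all 8 omissions. The exons of *Glul* overlap those of *Teddm2* on the other strand by 116 bases (3.49% of its exon length) and *Mir8114* on its own strand by 93 bases (2.8%), and these had at most 6 and 0 reads in any library.

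*Got1* (ENSMUSG00000025190, chromosome 19, 43499752 to 43524605, minus strand), the cytosolic aspartate aminotransferase, had a level that was higher at each dose in turn. Its level was 49.2, 46.5, 49.7 and 50.1 CPM with vehicle, 60.1, 59.3, 56.4 and 52.9 CPM at 10 µM and 72.3, 67.1, 66.1 and 68.9 CPM at 50 µM. The groups did not overlap in any pair, and the mean went from 48.9 ± 1.59 to 57.2 ± 3.25 to 68.6 ± 2.72 CPM (SD, n = 4 each). The log2 fold change at 10 µM was 0.23 ± 0.07 (95% interval 0.08 to 0.37), not called after adjustment over all genes in any setting tried. It was 0.50 ± 0.07 (95% interval 0.35 to 0.65) at 50 µM against vehicle and 0.27 ± 0.07 (0.12 to 0.41) at 50 µM against 10 µM, both called. Of the 9 enzymes, *Got1* was the only one whose 4 libraries at 10 µM all lay above vehicle.

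Of the proline enzymes, *Aldh18a1* (ENSMUSG00000025007, chromosome 19, 40550257 to 40588463, minus strand) encodes the synthase that reduces glutamate to pyrroline-5-carboxylate, and *Pycr1* (ENSMUSG00000025140, chromosome 11, 120635712 to 120643769, minus strand) encodes a mitochondrial reductase that turns pyrroline-5-carboxylate into proline. *Pycr1* was at 4.69, 3.93, 5.24 and 7.43 CPM with vehicle, 4.09, 4.16, 3.57 and 4.39 CPM at 10 µM and 11.1, 11.0, 11.9 and 12.4 CPM at 50 µM. *Aldh18a1* was at 91.7, 83.8, 90.5 and 104 CPM with vehicle, 93.3, 92.8, 84.1 and 86.6 CPM at 10 µM and 119, 118, 109 and 134 CPM at 50 µM. For both genes all 50 µM libraries lay above all others, by a wide gap for *Pycr1* and a narrow one for *Aldh18a1*. The log2 fold change of *Pycr1* at 50 µM against vehicle was 1.13 ± 0.17 (95% interval 0.76 to 1.51), from 5.32 ± 1.503 to 11.6 ± 0.661 CPM (SD, n = 4 each). That of *Aldh18a1* was 0.38 ± 0.09 (95% interval 0.20 to 0.57), from 92.6 ± 8.47 to 120.0 ± 10.0 CPM (SD, n = 4 each). At 10 µM the 2 were at -0.39 ± 0.20 (-0.82 to 0.04) and -0.05 ± 0.08 (-0.22 to 0.11), neither called. Without vehicle replicate 4 the value of *Pycr1* at 10 µM was -0.19, and over the 8 omissions of a library it ranged from -0.52 to -0.19. The vehicle libraries of *Pycr1* spread from 3.93 to 7.43 CPM and contain the whole range at 10 µM except for replicate 3. Its log2 fold change at 50 µM against 10 µM was 1.52 ± 0.13 (1.26 to 1.79).

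*Gpt2* (ENSMUSG00000031700, chromosome 8, 85492576 to 85527560, plus strand), the mitochondrial alanine aminotransferase, was at 11.8, 11.1, 13.2 and 12.1 CPM with vehicle, 12.0, 12.9, 11.2 and 14.7 CPM at 10 µM and 26.0, 29.2, 28.6 and 31.2 CPM at 50 µM. *Bcat1* (ENSMUSG00000030268, chromosome 6, 144993835 to 145076184, minus strand), the cytosolic aminotransferase of leucine, isoleucine and valine, was at 7.03, 7.05, 9.40 and 11.0 CPM with vehicle, 8.15, 7.65, 8.95 and 9.52 CPM at 10 µM and 17.5, 18.9, 18.9 and 20.3 CPM at 50 µM. Both genes overlapped between vehicle and 10 µM, and both lay apart at 50 µM. The log2 fold change at 50 µM against vehicle was 1.27 ± 0.10 (95% interval 1.06 to 1.47) for *Gpt2*, with group means of 12.0 ± 0.883 and 28.8 ± 2.17 CPM (SD, n = 4 each). It was 1.14 ± 0.14 (95% interval 0.83 to 1.45) for *Bcat1*, with means of 8.61 ± 1.92 and 18.9 ± 1.12 CPM. At 10 µM the values were 0.08 ± 0.11 (-0.16 to 0.31) for *Gpt2* and -0.01 ± 0.16 (-0.35 to 0.34) for *Bcat1*. The exons of *Bcat1* share 337 bases (3.62% of its exon length) with the antisense gene *Gm26666*, which had 0 reads in every library.

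*Pck2* (ENSMUSG00000040618, chromosome 14, 55540266 to 55551242, plus strand) encodes the mitochondrial phosphoenolpyruvate carboxykinase, which makes phosphoenolpyruvate from oxaloacetate. It was at 28.9, 27.5, 32.7 and 35.3 CPM with vehicle, 34.2, 30.3, 31.4 and 32.4 CPM at 10 µM and 71.6, 83.3, 84.5 and 99.9 CPM at 50 µM. The vehicle and 10 µM ranges overlapped, and the lowest 50 µM library was above every other library. Means were 31.1 ± 3.56, 32.1 ± 1.66 and 84.8 ± 11.6 CPM (SD, n = 4 each). The log2 fold change was 1.46 ± 0.11 (95% interval 1.22 to 1.70) at 50 µM and 0.05 ± 0.09 (-0.15 to 0.24) at 10 µM, both against vehicle, and among the 9 enzymes *Pck2* had the largest difference after *Cth* at 50 µM against vehicle. Its exons share 53 bases (0.68%) with the antisense gene *Gm10876*, which had at most 4 reads in a library.

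**Figure D2:**
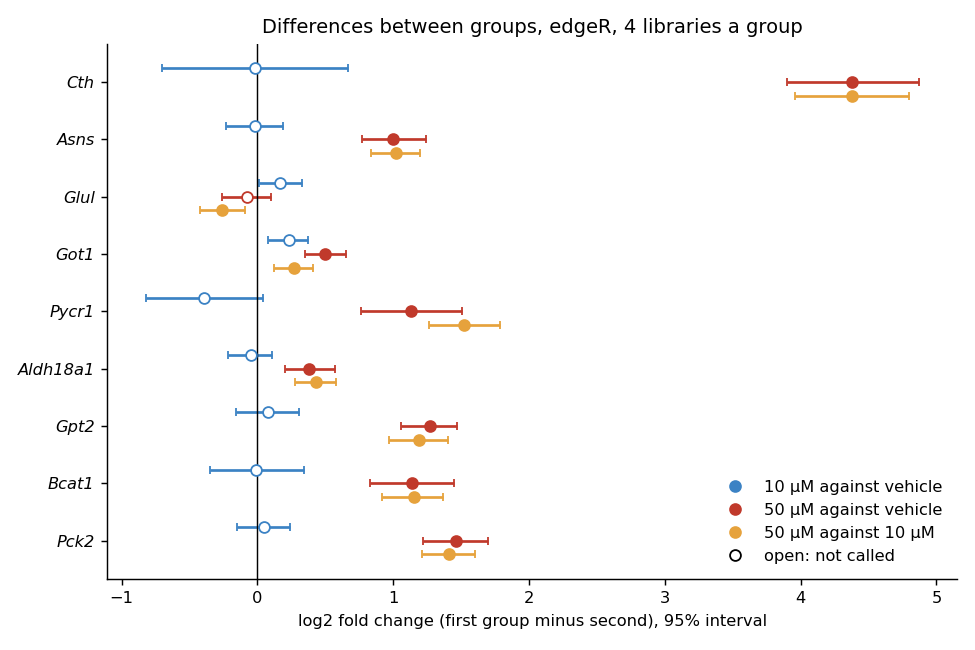
Log2 fold change (horizontal axis) of the 9 tested enzymes with its 95% interval in the 3 comparisons of groups, from edgeR on 4 libraries a group. Filled points were called. All points for 10 µM against vehicle are open, and *Cth* at 4.38 lies apart from the others, which run from -0.08 (*Glul*) to 1.46 (*Pck2*) at 50 µM against vehicle and from -0.26 (*Glul*) to 1.52 (*Pycr1*) at 50 µM against 10 µM.

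The enzymes can be ordered by their levels only per length of exon, here as CPM per kilobase (mean ± SD, n = 4). With vehicle the highest were *Glul* (32.8 ± 2.30), *Asns* (24.4 ± 3.41), *Aldh18a1* (22.7 ± 2.08) and *Got1* (19.3 ± 0.627). The next was *Pck2* (3.98 ± 0.456), followed by *Gpt2* (2.13 ± 0.157), *Pycr1* (1.35 ± 0.382), *Bcat1* (0.924 ± 0.206), *Cth* (0.4996 ± 0.158) and *Cbs* (0.0354 ± 0.0197). In this order *Asns* and *Aldh18a1* overlapped in their libraries, as did *Pycr1* and *Bcat1*, and the other neighbours did not. At 50 µM *Asns* was the highest (48.6 ± 5.67 CPM per kilobase), above *Glul* (30.9 ± 2.84), *Aldh18a1* (29.5 ± 2.46) and *Got1* (27.0 ± 1.07), whose libraries overlapped between neighbours. *Cth* moved from the ninth place to the sixth at 10.4 ± 2.41 CPM per kilobase and overlapped with *Pck2* (10.9 ± 1.49), while *Gpt2* (5.10 ± 0.384), *Pycr1* (2.95 ± 0.168), *Bcat1* (2.03 ± 0.120) and *Cbs* (0.0414 ± 0.0299) kept their order below it without overlap. Exon lengths are those of all annotated transcripts together, so a gene with long unused exons, such as a *Cbs* of 7485 bases, would be placed too low.

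Libraries within a group also differed, and the enzymes deviated partly together. Of the 8 enzymes that were called higher at 50 µM, vehicle replicate 4 had the highest level of its group for 7, the exception being *Gpt2*, and vehicle replicate 2 the lowest for 6. At 50 µM, replicate 4 was highest for 6 of the 8 and replicate 1 lowest for 5. At 10 µM no library was highest for more than 4. Deviations from the group means over the 12 libraries had a Pearson r of 0.80 between *Pycr1* and *Bcat1*, 0.74 between *Asns* and *Pck2* and 0.71 between *Cth* and *Bcat1*. *Got1* and *Glul* deviated together (r = 0.81), whereas *Cth* had r = -0.44 with *Glul* and -0.33 with *Got1*. These are descriptions over 12 points that share libraries and their depth.

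**Figure D3:**
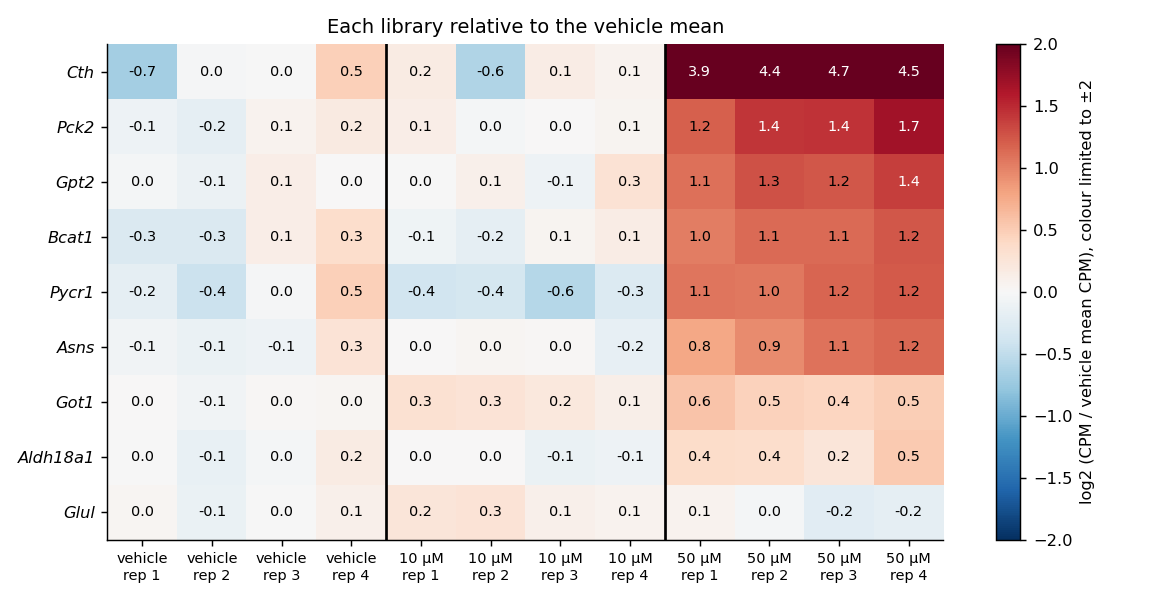
Log2 ratio of each library's CPM to the vehicle mean of the gene for the 9 tested enzymes (rows) in the 12 libraries (columns), with the value printed in each cell and the colour limited to 2 in either direction. *Cth*, *Pck2*, *Gpt2*, *Bcat1*, *Pycr1* and *Asns* are higher in all 4 libraries at 50 µM, *Got1* and *Aldh18a1* are higher by less, and *Glul* is not.

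For 5 of the 10 enzymes (*Got1*, *Gpt2*, *Bcat1*, *Pck2* and *Pycr1*) isoenzymes outside the chosen 10 were examined. *Got2*, the mitochondrial aspartate aminotransferase, was at 136 ± 12.8 CPM with vehicle, 127 ± 3.76 at 10 µM and 111 ± 10.6 at 50 µM (SD, n = 4 each). Its log2 fold change at 50 µM against vehicle was -0.29 ± 0.09 (SE, adjusted p = 0.0503 from edgeR), not called, beside 0.50 for *Got1*. *Bcat2*, the mitochondrial branched-chain aminotransferase, went from 74.1 ± 4.85 to 93.2 ± 6.82 CPM. It was called higher at 50 µM, with a log2 fold change of 0.34 ± 0.08 (SE, adjusted p = 0.0133 from edgeR) against vehicle and 0.39 ± 0.08 (SE, adjusted p = 0.00314) against 10 µM, and every 50 µM library lay above every vehicle library. The value of *Bcat1* was 1.14. *Gpt*, the cytosolic alanine aminotransferase, was low, from 3.05 CPM with vehicle to 3.75 CPM at 50 µM, and its log2 fold change of 0.31 ± 0.19 (95% interval -0.10 to 0.72) was not called, beside 1.27 for *Gpt2*. *Pycrl* (an older symbol of *Pycr3*), which encodes another pyrroline-5-carboxylate reductase, was at -0.19 ± 0.12 (-0.46 to 0.07), not called, beside 1.13 for *Pycr1*. *Pck1*, the cytosolic carboxykinase, had at most 2 reads in any library and was not tested. The differences between isoenzymes in their response were not tested, and these 4 tested isoenzymes had log2 fold changes between -0.18 and -0.05 at 10 µM, not called.

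**Figure D4:**
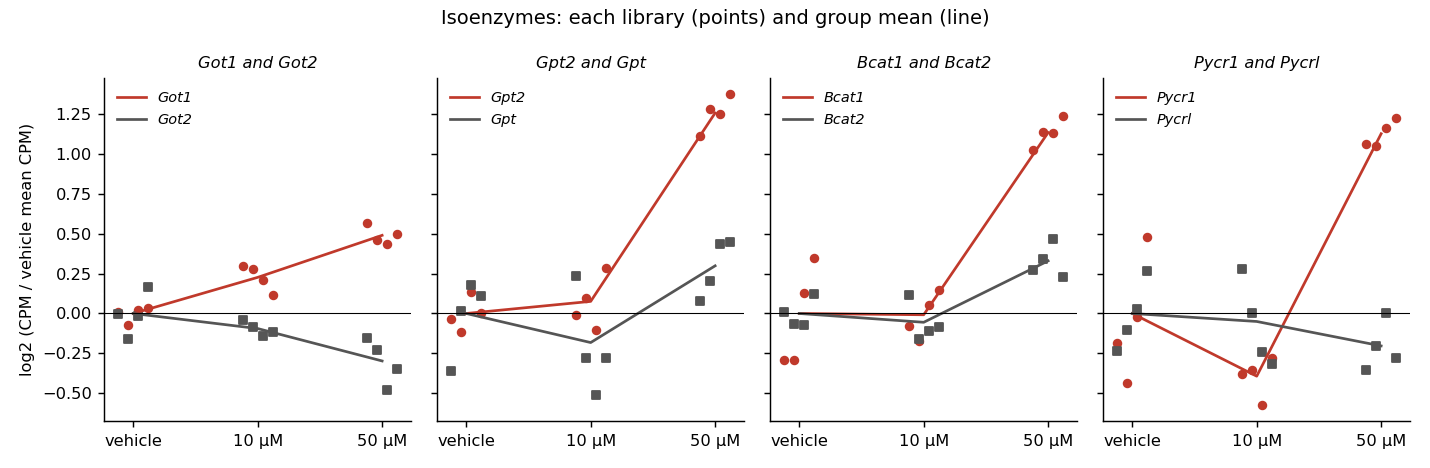
Log2 ratio of CPM to the vehicle mean of the gene (vertical axis) for 4 of the enzymes and their isoenzymes in the 3 groups. Points are libraries and lines join group means. At 50 µM all 4 libraries of *Got1*, *Gpt2*, *Bcat1* and *Pycr1* lie above those of their isoenzymes on this scale.

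The other enzymes of these pathways were taken from 6 lists of 76 symbols in all, of which 73 were found in the count table and 61 passed the filter. At 10 µM 1 of the 61 was called by edgeR, higher than with vehicle, while 5 had an unadjusted p under 0.05, DESeq2 called 2 and limma-voom 1. At 50 µM against vehicle 7 of the 61 were called higher and 7 lower, beside 7.00% and 6.50% of all genes tested, and against 10 µM 9 higher and 7 lower, beside 7.52% and 7.85%. With so few genes a list, the counts below are descriptions and nothing is read from them about a pathway. The median log2 fold change of the 61 was -0.01, 0.03 and 0.00. In the methionine cycle, which supplies homocysteine, 2 of 9 tested genes were higher and 2 lower at 50 µM against vehicle. *Mat2a*, the methionine adenosyltransferase, fell from 188 ± 4.56 to 139 ± 15.3 CPM, which was -0.43 ± 0.08 on the log2 scale (SE, adjusted p = 0.0039 from edgeR), and its regulatory subunit *Mat2b* fell by 0.34 on the log2 scale. *Ahcyl1* was higher by 0.46 (adjusted p = 0.000447 from edgeR). *Ahcyl2* was the gene called at 10 µM (0.33 ± 0.06, adjusted p = 0.0394 from edgeR). Of the 8 fits without a library, only that without vehicle replicate 4 called any of the 61 genes (1 gene), and none was called with the replicate block, the exon length offset or all 12 libraries in the fit.

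Downstream of cysteine, 2 of 12 tested genes were called at 50 µM against vehicle, both higher. *Gss*, the glutathione synthetase, was at 16.6, 12.5, 11.6 and 14.2 CPM with vehicle and 17.9, 20.2, 23.1 and 17.1 CPM at 50 µM, without overlap (log2 fold change 0.52 ± 0.13, adjusted p = 0.0207 from edgeR). *Suox*, which oxidises sulfite, was higher by 0.46 (adjusted p = 0.0109). Against 10 µM, *Gss* (0.64), *Suox* (0.55) and *Sqor*, a sulfide oxidoreductase (0.23), were called higher. Around glutamine and aspartate, 2 of 12 were called at 50 µM against vehicle, both lower, among them *Ppat*, the amidotransferase that starts purine synthesis (-0.29, adjusted p = 0.0419). DESeq2 and limma-voom each called 3 genes of this list, which also holds *Got2*. In proline and ornithine metabolism, 1 of 8 was called, and it was lower. This was *Prodh*, the dehydrogenase that degrades proline (-0.42 ± 0.13, adjusted p = 0.0493), from 12.0 ± 1.83 to 8.95 ± 0.659 CPM, with overlap between the groups and no call by limma-voom. Against 10 µM the collagen prolyl hydroxylase subunits *P4ha1* (-0.33) and *P4ha2* (-2.54 ± 0.52, from 1.70, 1.79, 4.74 and 3.34 to 0.781, 0.623, 0 and 0.546 CPM) were lower, and the latter rests on few reads. Against vehicle neither was called by edgeR at either dose, with *P4ha1* at 0.31 at 10 µM and -0.02 at 50 µM and *P4ha2* at 1.60 and -0.95. DESeq2 called 1 gene of the proline and ornithine list at 10 µM.

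Among further aminotransferases and branched-chain enzymes, 2 of 11 were called at 50 µM against vehicle, both higher, *Bcat2* and the isovaleryl-CoA dehydrogenase *Ivd* (0.30, adjusted p = 0.0479 from edgeR). *Dbt*, a subunit of the branched-chain keto acid dehydrogenase, was also called against 10 µM (0.26). Of 9 genes around phosphoenolpyruvate, pyruvate and the malate-aspartate shuttle, 1 was higher and 2 were lower. *Mdh2*, the mitochondrial malate dehydrogenase, rose from 291 ± 19.0 to 394 ± 15.4 CPM, which was 0.44 ± 0.07 on the log2 scale (SE, adjusted p = 0.00115). The malic enzyme *Me2* fell by 0.44 on the log2 scale (adjusted p = 0.0123), and *Slc25a12*, an aspartate-glutamate carrier, went from 155 ± 7.85 to 113 ± 7.41 CPM (-0.45 ± 0.07, adjusted p = 0.00134).

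**Figure D5:**
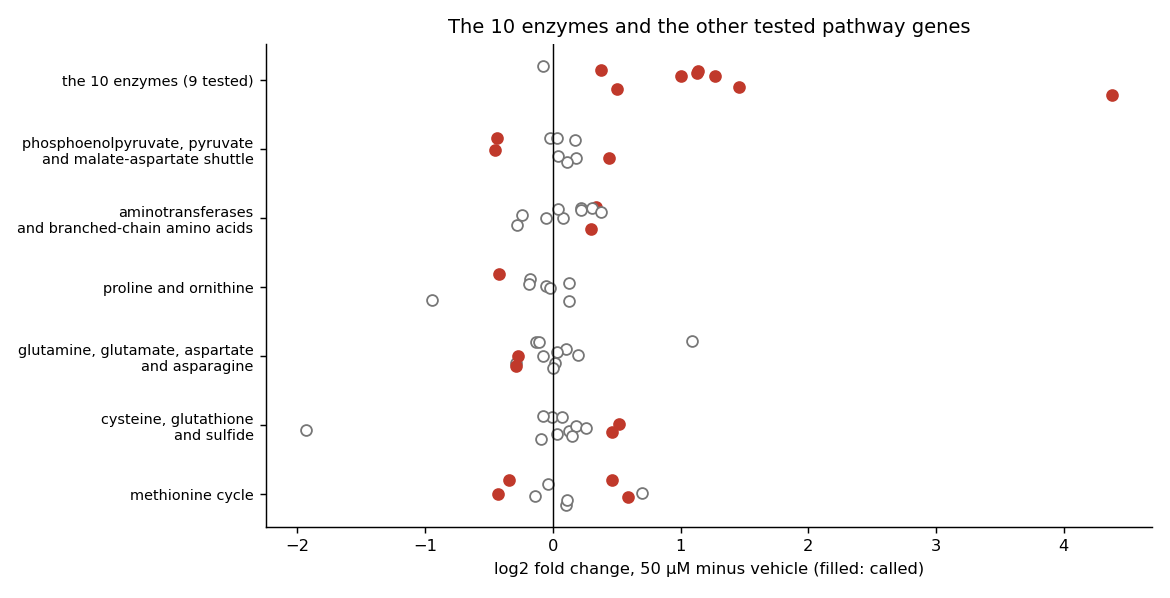
Log2 fold change at 50 µM against vehicle (horizontal axis) of the 9 tested enzymes (top row) and of the 61 other tested genes of the 6 pathway lists (rows, spread vertically only to keep points apart). Filled points were called. Called genes of the lists lie on both sides of 0, 7 higher and 7 lower, and the called enzymes lie between 0.38 and 4.38.

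For each tested enzyme, the 3 other genes were sought, among those averaging 1 CPM or more over all 12 libraries, whose log2 CPM over the 12 libraries had the highest Pearson r with it. *Ptk7*, a receptor-like pseudokinase, was among these for 4 enzymes, with r = 0.984 with *Cth*, 0.987 with *Pck2*, 0.984 with *Gpt2* and 0.976 with *Bcat1*, and its level was 1.71 ± 0.227, 1.97 ± 0.222 and 6.36 ± 0.628 CPM in the 3 groups (SD, n = 4 each). The mitochondrial folate enzymes *Mthfd2* (with *Asns*, r = 0.980, and *Pck2*, 0.976), *Shmt2* (with *Asns*, 0.972, and *Aldh18a1*, 0.970) and *Aldh1l2* (with *Gpt2*, 0.970, and *Bcat1*, 0.976) came up for 2 enzymes each, as did the sterol enzyme *Sc5d*. *Mthfd2* was at 113 ± 8.46, 111 ± 8.92 and 187 ± 11.1 CPM and *Aldh1l2* at 0.836 ± 0.376, 1.16 ± 0.426 and 7.20 ± 1.58 CPM. *Got1* had other genes at its side, with *Gpnmb*, a gene of the macrophage marker list, at r = 0.978. *Gpnmb* itself was at 787, 1205 and 1707 CPM. *Glul* was most like *Fam57a* (r = 0.964), which was at 9.76, 12.6 and 8.26 CPM. These values of r join 3 groups of 4 libraries, and for most of the enzymes they largely restate the step between 10 and 50 µM.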

How the data were processed

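The authors used Atropos to trim the reads of 12 stranded mRNA libraries and HISAT2 (2.2.1) to align them to mm10, and deposited raw counts per Ensembl GRCm38.92 gene from featureCounts (2.0.1, versions from the submitters' processing notes). The strand setting of the counting is not given in the sources used here. The title of 10 µM replicate 3 repeats that of replicate 2, so its library name was used. Medium was changed on day 3 per the labels, while the methods give a shorter interval.

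Genes over 0.5 CPM in at least 2 of 12 libraries were tested with edgeR 4.0.16 (TMM, glmQLFit, glmQLFTest) in R 4.3.3, on the 8 libraries of each comparison, two-sided, without a replicate block. The methods were tested on simulated data. Alternatives were DESeq2 1.42.0, limma-voom (limma 3.58.1), other size factors, filters and samples, an exon length offset (lowess span 0.3; 14889 of 14894 tested genes had a length) and leaving out each library. Pairs of libraries of the same group were compared, and none were copies. Positions are from GENCODE M21. Named genes are the 10 enzymes, their isoenzymes, called genes of the lists (at most 4 per list and comparison) and, for each enzyme, the 3 genes with the highest r. Some genes that meet these rules are counted but not reported here by name. The enzymes, lists and markers were chosen with earlier results of these data known. Plots were drawn with matplotlib 3.10.9.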

Additional observations from a re-analysis of the deposited data

Results flagged for a closer look

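Of 42 sets of 4 libraries checked for a library far from the others (14 tested genes, the enzymes and their isoenzymes, in 3 groups), 2 held one, where chance gives about 1 in 20. *Cth* in 10 µM replicate 2 was at 0.919 CPM, below the other 3 libraries at 1.47 to 1.56 CPM. *Asns* in vehicle replicate 4 was at 80.5 CPM, above the other 3 at 60.8 to 63.3 CPM. Without that library the log2 fold change of *Asns* was 0.08 at 10 µM, again not called.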

How the results depend on the processing

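At 50 µM against vehicle, 8 enzymes were called under each of 16 alternatives, at 50 µM against 10 µM 8 or 9, and at 10 µM 0. The number of genes called at 10 µM over the whole table, 61, was 250 with DESeq2, 150 without a filter, 118 with all 12 libraries in the fit, 102 with the exon length offset and 3 with the replicate block. It ranged from 4 (without 10 µM replicate 2) to 122 (without vehicle replicate 4) and was 10, 20 and 37 without vehicle replicates 1, 2 and 3 and 25, 12 and 26 without 10 µM replicates 1, 3 and 4. The number at 50 µM against vehicle, 2010, ranged from 1247 (without vehicle replicate 3) to 2689 and was 1313 without 50 µM replicate 2. Other pathway genes called at 10 µM, 1 in the report, were 2 with DESeq2, 0 with the replicate block, the exon length offset or all 12 libraries, and 0 to 1 with a library left out (1 only without vehicle replicate 4). Those at 50 µM against vehicle, 14, were 16 with DESeq2 and ranged from 9 (without vehicle replicate 3) to 15 with a library left out. The cause of these shifts was not tested. Some enzymes with a log2 fold change near 0 at 10 µM changed sign. *Cth* was at 0.04 with limma-voom and 0.00 with the replicate block and *Bcat1* at 0.02 and 0.01. With a library left out, the log2 fold changes at 10 µM ranged from -0.19 to 0.19 for *Cth*, -0.09 to 0.13 for *Bcat1*, -0.06 to 0.08 for *Asns*, -0.10 to 0.01 for *Aldh18a1*, 0.00 to 0.13 for *Gpt2* and -0.01 to 0.11 for *Pck2*. The letters TTGCATCA in place of TGATGNAA were in 2 promoters and not 4. The replicate numbers did not pair the libraries (r of same-numbered deviations from -0.242 to 0.142), and the block changed no call of an enzyme. Few reads limit *Cth* at 10 µM and *Cbs* in every group.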
